A study of Mus musculus with 15 samples.

Results

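The genes described here encode enzymes that oxidise or reduce steroids: the 3-beta-hydroxysteroid dehydrogenases Hsd3b1, Hsd3b2, Hsd3b3, Hsd3b4, Hsd3b5 and Hsd3b6, the 17-beta-hydroxysteroid dehydrogenases Hsd17b2 and Hsd17b6, and the steroid reductases Srd5a1 and Srd5a3. They were chosen by symbol in a results table for genotype that the authors deposited, keeping the most abundant row of a symbol. Of the 10 genes, 9 had a row among the 24965 genes of that table, and Hsd3b4 was not analysed here. An adjusted p was present for 7 of the 9, as for 13335 genes in all.

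RNA had been sequenced from liver of 15 male C57BL/6J mice, 9 weeks old, all homozygous for floxed Gata4, the gene of a zinc finger transcription factor. Animals labelled knockout (Gata4LKO) had received AAV8-Tbg-Cre, an adeno-associated virus that expresses Cre from a promoter active in hepatocytes, and controls an empty AAV8, 7 days before. Livers came from mice fasted for 12 h (4 control, 4 knockout) or fasted for 12 h and then given a diet of 69% sucrose and 10% fat for 12 h (4 control, 3 knockout). Virus was given at 8 weeks of age, and all animals were killed at the same time of day. Control animals received no Cre, so effects of Cre itself and of deleting Gata4 cannot be told apart.

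Values are log2 fold changes with standard errors (SE) from the authors' model, knockout minus control in fasted livers, beside a mean normalized count over all 15 libraries. Values of single livers and of the refed groups were not analysed here. The header names neither the groups compared nor the direction, and both rest on the fit and the choice described with the processing. Gata4 was not lower in livers labelled knockout. For it the authors' deposited table gave a log2 fold change of 0.31 ± 0.15 (SE). The adjusted p was 0.361 and the unadjusted p 0.0324 (DESeq2 Wald test). Its interval, from 0.026 to 0.603, lay wholly on the higher side. In the direction taken here, this estimate is thus opposite to a loss of Gata4 transcript. With the signs turned, Gata4 would be lower in livers labelled knockout. Which exons are floxed is not stated in the labels, and reads summed over all exons are no measure of a partial deletion. Livers are therefore named by their labels. The labelled tissue held its defining transcripts: all 8 hepatocyte markers had an adjusted p, led by Alb at a mean of 1107247 normalized counts in the authors' deposited table. Of these, 1 was called, against 2.19% of all tested genes. This was Apoa1, the main apolipoprotein gene of HDL, for which the authors' deposited table gave -0.48 ± 0.11 (SE) and an adjusted p of 0.00134 (DESeq2).

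Steroid hormones are made in adrenal and gonad and are largely inactivated in liver. Dehydrogenases of the 3-beta family convert delta-5 steroids to delta-4 ketosteroids, while some rodent members, Hsd3b4 and Hsd3b5 among them, mainly reduce ketosteroids with NADPH. Enzymes of the 17-beta group set the oxidation of the hydroxyl group that makes testosterone and estradiol active, and 5-alpha-reductases saturate the ring of testosterone and of glucocorticoids. Several of these genes are expressed at different levels in male and female mouse liver, Hsd3b5 being a classic male-predominant one.

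The Hsd3b genes lie side by side on chromosome 3, from 98499071 to 98859794 (mm10, GENCODE M21), a stretch of 360.7 kb, all on the minus strand. Their opening coding bases are shown because reads from similar genes can be hard to assign. Over the 90 bases shown, Hsd3b5 differed from Hsd3b4 at 2. It differed from Hsd3b1, Hsd3b2, Hsd3b3 and Hsd3b6 at 11 to 14. Bases 1 to 90 of the coding sequence are printed from the start codon (GENCODE M21 transcripts), with capitals at the 20 columns that vary among the 6 genes.
Hsd3b5: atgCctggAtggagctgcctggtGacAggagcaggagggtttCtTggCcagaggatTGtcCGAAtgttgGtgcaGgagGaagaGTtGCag
Hsd3b4: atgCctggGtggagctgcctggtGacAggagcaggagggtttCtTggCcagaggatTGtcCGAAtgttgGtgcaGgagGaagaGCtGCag
Hsd3b1: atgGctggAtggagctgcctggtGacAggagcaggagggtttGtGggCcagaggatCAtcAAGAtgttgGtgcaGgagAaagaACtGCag
Hsd3b2: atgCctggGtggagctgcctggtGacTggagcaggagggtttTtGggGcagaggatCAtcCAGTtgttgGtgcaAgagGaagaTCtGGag
Hsd3b3: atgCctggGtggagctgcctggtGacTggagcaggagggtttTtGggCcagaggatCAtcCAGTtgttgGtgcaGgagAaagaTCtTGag
Hsd3b6: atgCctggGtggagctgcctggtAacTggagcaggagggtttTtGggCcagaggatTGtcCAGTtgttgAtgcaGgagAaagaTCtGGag

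Over the whole coding sequence, of 1122 bases in each gene, the family fell into 2 branches by identity. Hsd3b5 shared 95.2% of bases with Hsd3b4 and between 79.6% and 82.0% with Hsd3b1, Hsd3b2, Hsd3b3 and Hsd3b6. Those 4 shared between 89.3% and 95.1% with one another, Hsd3b2 and Hsd3b3 being the closest pair. Hsd3b4 was identical in every base to the predicted gene Gm10681, so no read within the coding sequence can be assigned to one of the 2.

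**Figure D1:**
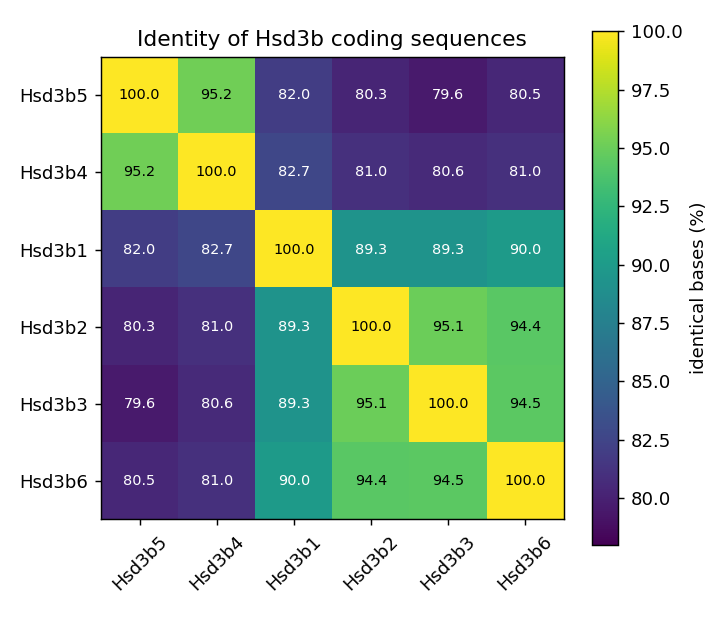
Percentage of identical bases between aligned coding sequences of the Hsd3b genes (GENCODE M21), with gene names on both axes and the percentage as colour and number. Hsd3b5 and Hsd3b4 form one block at 95.2%, and Hsd3b1, Hsd3b2, Hsd3b3 and Hsd3b6 another at 89.3% to 95.1%.

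How much of each transcript is unique was counted in stretches of 100 bases on the same strand. For Hsd3b5, 7.79% of such stretches also occurred in another gene (Gm10681, Hsd3b4 and Gm4450). The shares for 100 bases were 6.90% for Hsd3b2, 3.31% for Hsd3b3, 3.11% for Hsd3b6 and 0% for Hsd3b1. For Hsd17b6, 8.77% were shared with Rdh1, a neighbouring retinol dehydrogenase gene, among others, and for Srd5a1 13.6% with the transcript Gm17108, while Hsd17b2 and Srd5a3 shared 0%. In stretches of 50 bases the shares were 25.1% for Hsd3b2, 21.2% for Hsd3b5, 15.6% for Hsd3b6, 15.1% for Srd5a1, 12.1% for Hsd17b6, 6.69% for Hsd3b3, 4.86% for Hsd3b1 and again 0% for Hsd17b2 and Srd5a3. The sources used here give neither read length nor the treatment of reads with several matches, so the values of genes that share stretches are uncertain to that extent.

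Promoter windows, 250 bases before to 50 after the start site, were available for 9 of the 10 genes (RefSeq, GRCm38.p6) and were searched because the floxed gene encodes a GATA-binding factor. The windows of Hsd3b5, Hsd3b3 and Hsd3b1 are shown, 5′ to 3′, as those of the family gene that was called, of a neighbour with a related window, and of the gene with the most matches. Capitals mark GATA words of 6 bases, GATA with A or T before it and A or G after it, read on either strand.
Hsd3b5 (chr3:98645485-98645784, minus strand): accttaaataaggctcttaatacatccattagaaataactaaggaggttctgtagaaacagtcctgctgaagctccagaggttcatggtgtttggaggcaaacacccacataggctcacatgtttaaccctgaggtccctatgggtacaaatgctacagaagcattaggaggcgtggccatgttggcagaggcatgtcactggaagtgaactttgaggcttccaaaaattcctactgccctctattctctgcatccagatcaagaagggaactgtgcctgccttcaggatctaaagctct
Hsd3b3 (chr3:98763079-98763378, minus strand): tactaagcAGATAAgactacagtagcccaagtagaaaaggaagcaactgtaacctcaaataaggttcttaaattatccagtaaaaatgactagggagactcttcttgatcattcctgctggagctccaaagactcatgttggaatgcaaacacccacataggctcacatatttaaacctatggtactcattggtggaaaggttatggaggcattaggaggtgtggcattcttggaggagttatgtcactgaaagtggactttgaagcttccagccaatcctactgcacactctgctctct
Hsd3b1 (chr3:98859745-98860044, minus strand): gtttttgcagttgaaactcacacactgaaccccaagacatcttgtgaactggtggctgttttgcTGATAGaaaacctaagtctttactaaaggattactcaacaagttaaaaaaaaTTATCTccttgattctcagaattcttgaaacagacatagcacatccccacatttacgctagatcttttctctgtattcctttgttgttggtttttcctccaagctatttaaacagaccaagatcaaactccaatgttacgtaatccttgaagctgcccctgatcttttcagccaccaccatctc

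These words occurred in windows of 5 of the 9 genes, and in 29.8% of the 32851 windows of that length in the RefSeq table. The 9 genes had 12 windows, some of them overlapping, so the count by gene and the share by window are not like measures. Hsd3b1 held 2, one of them on the opposite strand, 186 and 134 bases before its start, and a match to TTCNNNGAA (the STAT5 word, on either strand) 122 bases before it. Matches to TTCNNNGAA occurred in 8.30% of all windows. The Hsd3b5 window had none of these words and no AGAACA, an androgen receptor word found on either strand in 19.0% of windows. Its RefSeq start lies 15.3 kb before the GENCODE M21 start of the same gene, so other start regions of Hsd3b5 are not in this window. Hsd3b5 and Hsd3b3 windows aligned over 250 columns at 75.2% identity, beginning at base 52 of the Hsd3b3 window, past its AGATAA at base 9. In the first RefSeq window of each gene Hsd3b5 thus resembled Hsd3b3, and in coding sequence Hsd3b4. Windows of different genes need not cover matching start regions, so window and coding comparisons are not like measures.

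Among the 7 tested genes, 2 fell in livers labelled knockout, Hsd3b5 and Hsd17b2, 0 rose and 5 did not pass. Calls use a deposited adjusted p under 0.05, from DESeq2's Wald test, adjusted by the Benjamini-Hochberg method. Of all 13335 tested genes, 1.60% were called lower, 0.585% higher and 2.19% in either direction. The median log2 fold change of the 7 genes was -0.44, against 0.01 for all tested genes in the authors' deposited table. Negative estimates were found for 5 of the 7 and for 48.1% of all tested genes. At an unadjusted p under 0.05, 4 of the 7 were lower, against 6.21% of all tested genes, and at an adjusted p under 0.1 also 4, against 2.26% (DESeq2). With 7 genes, of which 3 are neighbours, these counts describe the genes and nothing wider.

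**Figure D2:**
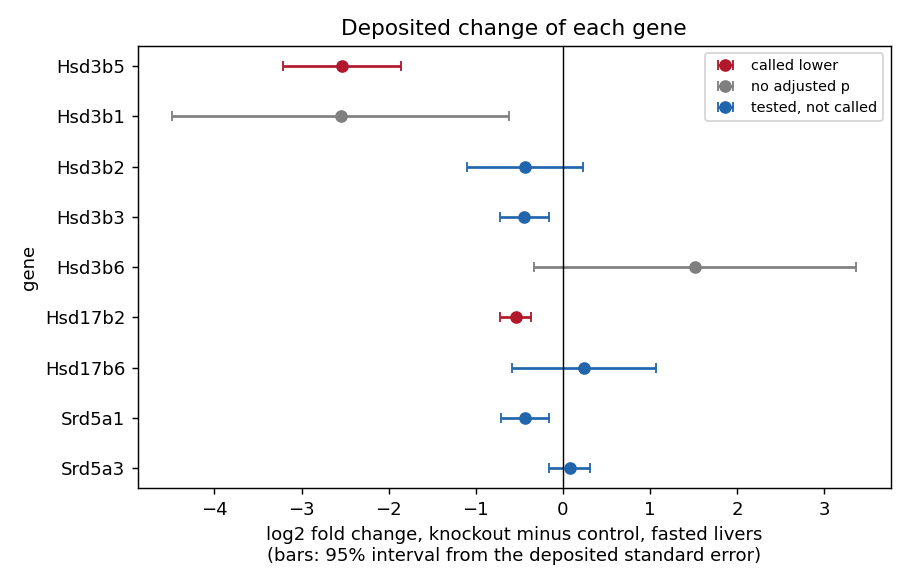
Log2 fold change (knockout minus control, fasted livers) of the 9 genes with a row, with bars for the 95% interval from the deposited standard error. Red points fell (Hsd3b5 at -2.54, Hsd17b2 at -0.54), blue points were tested and not called, and grey points (Hsd3b1, Hsd3b6) had no adjusted p.

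Hsd3b5, the male-predominant 3-ketosteroid reductase, fell to 17.2% of the control level, with a 95% interval from 10.8% to 27.6%. Its log2 fold change was -2.54 ± 0.35 (SE), at a mean of 1206 normalized counts and an adjusted p of 3.66e-10 in the authors' deposited table (ENSMUSG00000038092, chromosome 3, 98618634 to 98630252). Of all 13335 tested genes it ranked 10 by p. No called gene with a mean of at least 100 normalized counts had a larger fall, by a count of 0, and 9 tested genes of any mean lay at or below its estimate, itself included. Called falls with a log2 change of 1 or more made up 0.442% of tested genes. In whole liver, fewer expressing cells and less RNA per cell cannot be told apart.

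Hsd3b2 and Hsd3b3, the dehydrogenases next to it, had lower estimates of nearly the same size but different precision. For Hsd3b3 (98741523 to 98763127) the authors' deposited table gave -0.44 ± 0.14 (SE) at a mean of 2390 normalized counts, with an adjusted p of 0.0709. For Hsd3b2 (98709255 to 98724543) it was -0.44 ± 0.34 (SE) at a mean of 1167, with an adjusted p of 0.720 in the authors' deposited table. The Hsd3b3 interval ran from -0.72 to -0.16 and that of Hsd3b2 from -1.11 to 0.23. Neither passed, and neither interval reached that of Hsd3b5, whose upper end was -1.86. The difference between genes was not tested, since estimates from the same livers are not independent.

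Hsd3b1 and Hsd3b6, which serve steroid synthesis in adrenal and gonad, were near the detection limit in these livers. Their means of 7.32 and 2.67 normalized counts lay under 8.20, the lowest mean with an adjusted p in the authors' deposited table. Summed over 15 libraries these are about 110 and 40.1 normalized counts. Hsd3b1 (98852194 to 98859794) had a log2 fold change of -2.55 ± 0.99 (SE) and an unadjusted p of 0.00975 in the authors' deposited table, with an interval from -4.49 to -0.62. Adjusted over every gene with a p, its value was 0.356 (Benjamini-Hochberg on the DESeq2 Wald p), so it is given as an estimate only. For Hsd3b6 (98805504 to 98814443) the authors' deposited table gave 1.52 ± 0.94 (SE), with an unadjusted p of 0.107.

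Genes around the cluster had estimates near 0. Taken were the 10 tested genes whose starts lay nearest to the cluster, 5 on either side. The authors' DESeq2 test called 0 of them, against 2.19% of all tested genes. An unadjusted p under 0.05 was found for 0, against 11.4% of all tested genes. With 10 genes, such counts say little about the neighbourhood. Estimates lay between -0.21 and 0.10 in the authors' deposited table. Zfp697 started before the cluster, but its span ran into it, to 254.7 kb from the cluster's first base. Genes after the cluster started 642.0 to 2063 kb from that base. Between the Hsd3b genes lay 3 pseudogenes, Gm5853, Gm9678 and Gm12400, each with a mean of at most 0.481 normalized counts in the authors' deposited table.

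**Figure D3:**
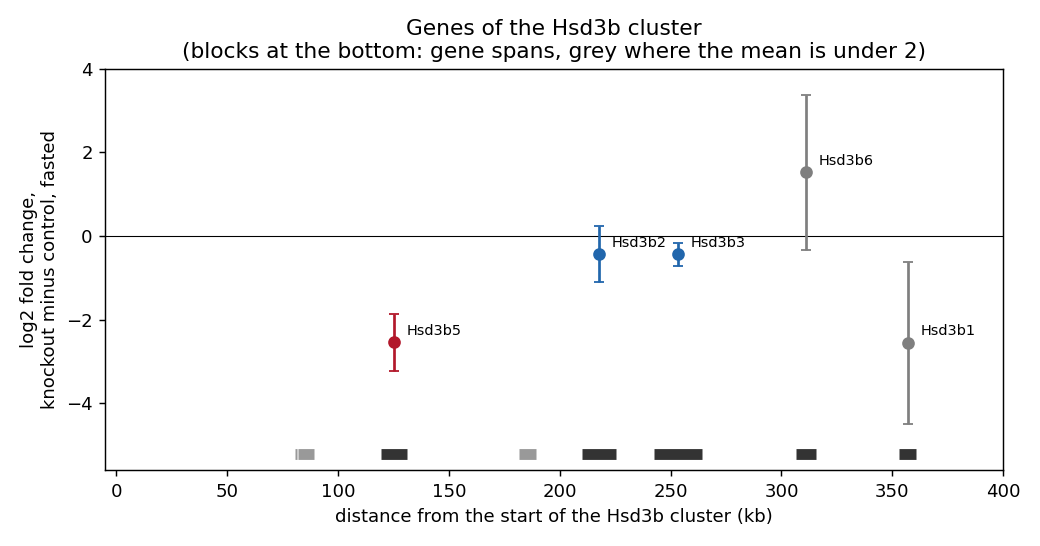
Log2 fold change (knockout minus control, fasted livers) with 95% intervals against distance along the Hsd3b cluster in kb, coloured as in the plot of each gene's change. Blocks at the bottom are gene spans, pale for the 3 pseudogenes; Hsd3b5 lies apart from Hsd3b2 and Hsd3b3, and the grey estimates of Hsd3b6 and Hsd3b1 have wide intervals.

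Hsd17b2, which oxidises estradiol and testosterone to their weaker ketones, fell by a small and precisely measured amount. Its log2 fold change was -0.54 ± 0.09 (SE) at a mean of 1516 normalized counts, with an adjusted p of 7.59e-07 in the authors' deposited table (ENSMUSG00000031844, chromosome 8, 117701904 to 117759027). This put it at 68.7% of the control level, with a 95% interval from 60.8% to 77.6%, and at rank 29 of all tested genes by p. Hsd17b6, an oxidoreductase of androgen and retinol metabolism on chromosome 10 (127990936 to 128007611), was not called. It stood at 0.25 ± 0.42 (SE) with a mean of 1151 normalized counts and an adjusted p of 0.914 in the authors' deposited table. The interval, from -0.58 to 1.07, includes the estimate of Hsd17b2.

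Srd5a1, the main hepatic 5-alpha-reductase of testosterone and glucocorticoids, had an estimate close to that of Hsd3b3. It was -0.43 ± 0.14 (SE) at a mean of 853.7 normalized counts, with an adjusted p of 0.0720, in the authors' deposited table (ENSMUSG00000021594, chromosome 13, 69573449 to 69611442). Srd5a3, whose product reduces polyprenol to dolichol for protein glycosylation, stood at 0.08 ± 0.12 (SE), mean 142.2 normalized counts, adjusted p of 0.906, in the authors' deposited table (chromosome 5, 76140271 to 76155504). Its interval ran from -0.15 to 0.31. The related isozyme Srd5a2, named after its values were seen, was scarce at 16.2 normalized counts, and the authors' deposited table gave it 0.89 ± 0.39 (SE) and an adjusted p of 0.297.

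**Figure D4:**
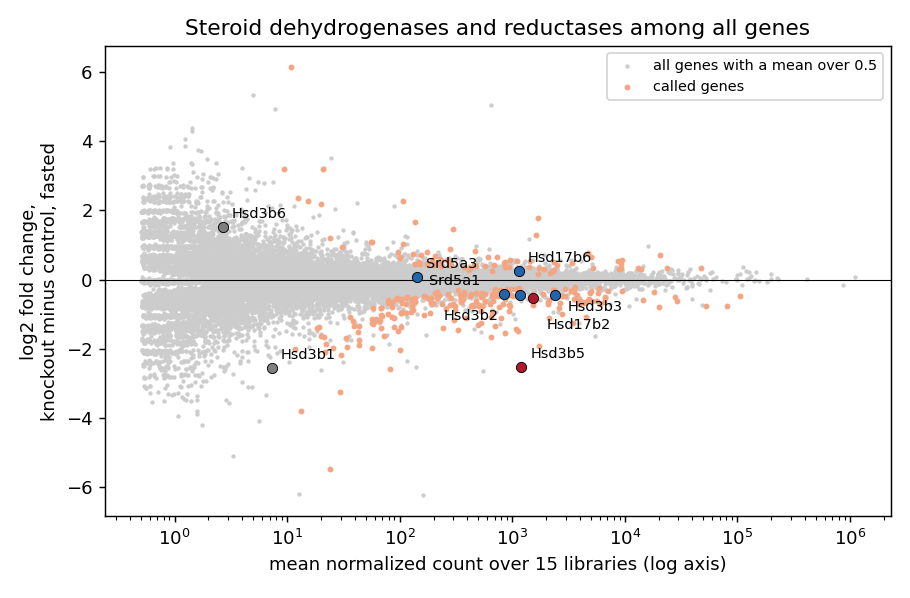
Log2 fold change (knockout minus control, fasted livers) against mean normalized count over 15 libraries on a log axis, for all genes with a mean over 0.5 (grey) and called genes (orange), with the 9 genes named. Hsd3b5 stands below genes of like abundance, while Hsd3b1 and Hsd3b6 lie in the broad spread of genes with few counts.

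By level, compared only per length, 6 of the genes were well expressed. Normalized counts per kb of transcript, over transcripts holding the whole coding sequence, were 1559 to 1602 for Hsd3b3, 1148 for Hsd17b2, 756.3 to 826.9 for Hsd17b6 and 778.5 for Hsd3b5. They were 315.7 to 1040 for Hsd3b2, whose transcripts differ much in length, 322.9 for Srd5a1 and 81.4 for Srd5a3. Hsd3b1 and Hsd3b6 were at 3.94 to 4.40 and 1.48 to 1.74 per kb. These levels average all groups, and the spread over livers behind the order was not analysed here.

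Precision differed widely among genes of similar abundance. The SE of Hsd17b6, Hsd3b5 and Hsd3b2 exceeded that of 99.2%, 98.7% and 98.6% of tested genes with a mean within 1.5-fold of theirs. Those of Hsd3b3 and Srd5a1 exceeded 88.9% and 88.4%, that of Hsd17b2 58.2% and that of Srd5a3 10.5%. Taking each SE as that of 4 livers against 4, the spread between livers of a group (coefficient of variation, after removing counting error) came to about 41.2% for Hsd17b6, 33.9% for Hsd3b5 and 33.2% for Hsd3b2. For Hsd3b3 and Srd5a1 it was about 13.8% and 13.3%, and for Hsd17b2 and Srd5a3 about 8.43% and 8.03%. The authors' model estimates this spread over all groups, so it is not that of the fasted livers alone.

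That spread set what could be called. The largest p among called genes was 0.00108 in the authors' deposited table, which corresponds to a change of 3.27 SE. A call therefore needed a log2 change of 1.38 for Hsd17b6 and 1.11 for Hsd3b2, but only 0.29 for Hsd17b2 and 0.39 for Srd5a3. Hsd3b3 and Srd5a1 needed 0.47 and 0.46, just beyond their estimates of -0.44 and -0.43 in the authors' deposited table. An estimate for Hsd3b2 as large as that of Hsd17b2 would thus not have been called.

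**Figure D5:**
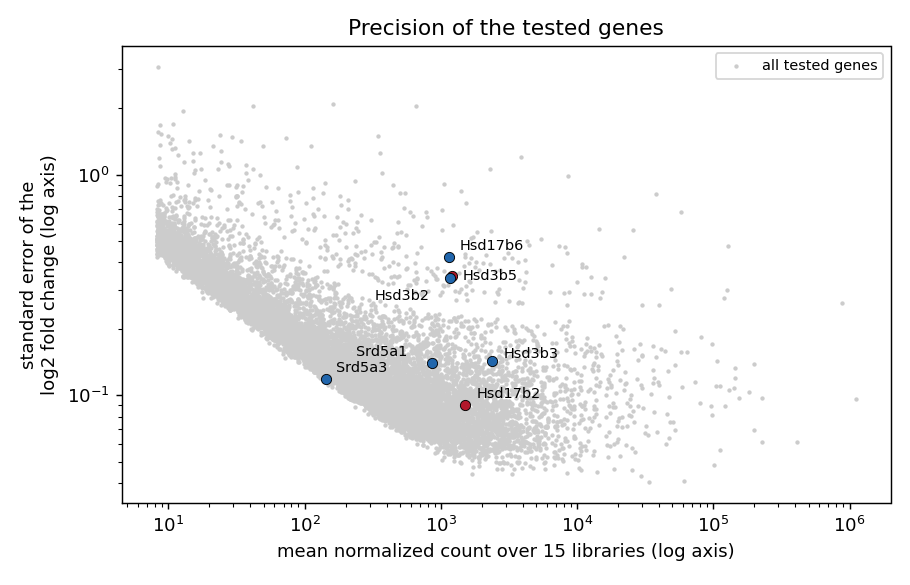
Standard error of the log2 fold change against mean normalized count over 15 libraries, both on log axes, for all tested genes (grey) and the 7 tested enzymes (red called lower, blue not called). Hsd17b6, Hsd3b5 and Hsd3b2 lie above nearly all genes of like mean, and Hsd17b2 lies within them.

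In other parts of steroid metabolism 3 genes rose and 0 fell among 49 tested of a list of 77 genes. Of all tested genes, 0.585% were called higher and 1.60% lower. The list had a median log2 fold change of 0.09 in the authors' deposited table. At an unadjusted p under 0.05 there were 15 of the 49, against 11.4% of all tested genes. Hsd11b1, which regenerates active glucocorticoid and works as a reductase in liver, rose by 0.54 ± 0.06 (SE) on the log2 scale at a mean of 8682 normalized counts, adjusted p of 8.01e-17, in the authors' deposited table. It was the one call among 15 tested genes of 11-beta dehydrogenases and other steroid oxidoreductases.

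Steroid conjugation held the other calls, with 2 of 14 tested genes of sulfation and glucuronidation higher, against 0.585% of all tested genes, and 0 lower. At an unadjusted p under 0.05 there were 7 of the 14, against 11.4% of all. The glucuronosyltransferase genes Ugt2a3 and Ugt2b5 rose by 0.64 ± 0.10 and 0.35 ± 0.10 (SE) on the log2 scale, with adjusted p of 2.44e-07 and 0.0394, in the authors' deposited table. Ugt2b genes resemble one another, so reads of Ugt2b5 may be split among them. The group had 11 positive estimates and a median of 0.28 in the authors' deposited table.

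Other 17-beta dehydrogenases did not pass in any of 6 tested cases by the authors' DESeq2 Wald test, with 2 at an unadjusted p under 0.05. Their median was -0.15 in the authors' deposited table. For this and the next groups, the shares of all tested genes were 2.19% called and 11.4% at an unadjusted p under 0.05. Groups this small cannot be set apart from those shares by a count of 0 called. For Hsd17b12 and Hsd17b11, of fatty acid elongation and lipid droplets, the authors' deposited table gave -0.20 ± 0.08 and -0.24 ± 0.10 (SE). Hsd17b3, the testicular testosterone-forming enzyme, named after its values were seen, had an estimate of 2.79 (95% interval 0.82 to 4.75) at a mean of 6.28 normalized counts and no adjusted p in the authors' deposited table. Among 7 tested genes of steroidogenic cytochromes P450, their electron donors and Star, the authors' DESeq2 test called 0, and 1 had an unadjusted p under 0.05. This was Fdxr, the ferredoxin reductase, for which the authors' deposited table gave -0.34 ± 0.13 (SE), against -0.11 ± 0.09 for its partner Fdx1. Of 7 tested steroid receptors and binding proteins 0 were called by that test and 2 had an unadjusted p under 0.05. These were Pgrmc1, a membrane heme-binding protein, at 0.21 ± 0.08, and Serpina6, the corticosteroid-binding globulin, at 0.46 ± 0.18 (SE), in the authors' deposited table.

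Male-biased liver genes were listed for comparison with Hsd3b5, which was left out of the list. Of 17 tested, 3 fell, 0 rose and 14 did not pass, against 1.60% of all tested genes lower, and 9 of the 17 estimates were positive. An unadjusted p under 0.05 (DESeq2 Wald test) was found for 7 of the 17, all of them lower. Of all tested genes, 6.21% were lower at that threshold, and 11.4% passed it in either direction. The fallen genes were Cyp4a12b, a fatty acid hydroxylase, at -1.48 ± 0.31 (SE), Selenbp2, which encodes a selenium-binding protein, at -1.68 ± 0.36 (SE), and Nudt7, a peroxisomal CoA hydrolase gene, at -0.69 ± 0.20 (SE), all from the authors' deposited table. Over the list the median in the authors' deposited table was 0.07. The authors' DESeq2 test called 0 of 6 tested female-biased genes, against 2.19% of all tested genes, and 0 had an unadjusted p under 0.05, against 11.4%. All 6 estimates were positive with a median of 0.53 in the authors' deposited table.

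Markers of tissues that express Hsd3b1 or Hsd3b6 were scarce. The 5 adrenal cortex markers with a row summed to 33.9 normalized counts, led by Star at 19.2, and the 3 kidney markers to 28.5, led by Lrp2 at 25.2, in the authors' deposited table. Leydig cell markers summed to 349.3, nearly all of it Cyp17a1 at 321.3, which mouse liver also expresses, and intestinal markers to 258.4, led by Lgals4 at 257.3, in the authors' deposited table. Of these markers 2, 1, 2 and 1 had an adjusted p, in the order adrenal, kidney, Leydig cell and intestine, and of these tested ones 0 were called and 0 had an unadjusted p under 0.05 (DESeq2). Hsd17b3, given above, is also on the Leydig cell list, with no adjusted p and an unadjusted p of 0.00542 in the authors' deposited table. Of the liver's other cells, Kupffer cell markers had 8 negative estimates of 8 and a median of -0.28, led by Clec4f at a mean of 565.1 normalized counts, in the authors' deposited table. Endothelial (led by Stab2), stellate (led by Dcn) and cholangiocyte markers (led by Spp1) had medians of 0.21, 0.02 and 0.05 in the authors' deposited table. These 4 lists held 8, 8, 8 and 4 tested markers, of which the authors' DESeq2 Wald test called 0, against 2.19% of all tested genes. At an unadjusted p under 0.05 there were 1, 4, 0 and 0, against 11.4% of all tested genes. The part of these cells in the changes of the steroid enzymes was not tested.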

How the data were processed

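Per the labels' protocols, stranded KAPA libraries were made from liver RNA (TRIzol, then RNeasy). The submitters' processing notes name mm10, FastQC, STAR 2.6.0c and DESeq2 as used by the authors. How reads were counted, with which strand setting and annotation, is not given in the sources used here. Per the file headers, the authors' deposited mean is an expression signal: read counts scaled by size factors, then averaged over libraries. The deposited log2 fold change has an SE, and the deposited Wald score is their ratio. Deposited p-values are of the Wald test, adjusted by Benjamini-Hochberg over 13335 genes. All 3 relations were checked, and the adjustment was tested on simulated data.

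Which groups were compared was narrowed, but not settled, with genes holding 1 read in all. Their means fell at 15 values, 1 per library, and their log2 fold changes in sets of 4, 4, 4 and 3 libraries. A negative binomial fit of such reads, written after the authors' DESeq2 with its default ridge and mean floor, gave the deposited values within 1.36e-09 for knockout minus control in fasted livers, in an interaction model over all 15 libraries. Refed minus fasted controls gave the same values. The next closest readings, at 4.37e-05, were these 2 contrasts with their signs turned, so the direction rests on that small difference. The first was taken because the table is named for genotype. Fasting genes bear on this: in the authors' deposited table Pck1, G6pc, Igfbp1 and Ppargc1a had log2 fold changes of 0.01, -0.04, 0.27 and 0.26, the fed-state genes Fasn and Srebf1 -0.77 and -0.72; another gene of this check is not reported here. All directions rest on this choice and on the sign. With the signs turned, Gata4 would be lower in livers labelled knockout, and Hsd3b5 and Hsd17b2 higher. Size factors recovered from these genes ran from 0.912 to 1.11, and the means summed to 1.80e+07 normalized counts, the depth of an average library. Replicates are separate animals by their titles. Within a group all titles share a leading number, which differs between groups, and the labels do not say what it marks. Whatever it marks cannot be told apart from genotype. The p-values weigh each change against a spread between livers that the model estimates over all groups.

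Intervals are at 95%, from the normal distribution. Coordinates and coding sequences came from GENCODE M21, matched by gene ID for 24944 of 24965 genes, and promoters from RefSeq. Python 3.11.15, SciPy 1.17.1 and Biopython 1.88 were used. Members and lists were chosen with earlier results of these data known. Named were all 10 enzymes, and called genes of the wider list or else the 2 of smallest p per group. Also named were called sex-biased genes, genes within the cluster and the most abundant marker of each list of other cells.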

Additional observations from a re-analysis of the deposited data

How the results depend on the processing

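Settings tried were the set of genes over which p-values were adjusted, the threshold, and the median of tested genes subtracted. All 37 repeats of single enzymes kept their side of the threshold, an enzyme without a deposited adjusted p being taken as not called. Their direction could not change. Another set of genes leaves the estimate as it is, and the median subtracted was 0.007, against a smallest estimate of 0.08 (Srd5a3). Of the 9 enzymes with a row, 4 were lower at an adjusted p under 0.1, Hsd3b3 and Srd5a1 joining Hsd3b5 and Hsd17b2, where 302 tested genes (2.26%) were lower. With a log2 change of at least 1 also required, 1 remained, Hsd3b5. Adjusted p ranged from 2.43e-10 to 6.84e-10 for Hsd3b5, 4.56e-07 to 1.42e-06 for Hsd17b2, 0.0609 to 0.132 for Hsd3b3 and 0.0618 to 0.134 for Srd5a1 (Benjamini-Hochberg on the DESeq2 Wald p). In the wider steroid list 3 genes were higher, and 2 when adjusted over every gene with a p; calls over all genes were 292, between 223 and 299 with other sets of genes or centring. No member symbol had another row to try. No paired analysis was possible because the result comes from a deposited table without values per sample; leaving out single livers could not be run for that reason.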
